A study of Mus musculus with 9 samples.

Results

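Branched-chain amino acid and ketone catabolism was followed through 9 genes in mouse heart: Bcat2, Bckdha, Bckdhb, Dbt, Bckdk and Ppm1k for the branched-chain amino acids, and Oxct1, Bdh1 and Acat1 for ketone bodies. They were chosen by symbol, and their mouse Ensembl identifiers picked 9 of the 53465 gene rows in each of 9 count files. All 9 passed the filter on low counts, which left 13825 genes for testing.

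The hearts came from NOD-SCID mice, an immunodeficient strain that tolerates transplanted foreign cells, and total RNA from the infarct border zone was sequenced. The sham group had surgery without ligation (3 libraries), the ligation group had the coronary artery tied off (3 libraries), and the third group had the ligation followed by implantation of FOXO3-GE-MPCs (3 libraries). The labels name these cells only by that abbreviation, and the source field of cell replicates 2 and 3 reads FOXO4 and FOXO5 where title and treatment read FOXO3, which was followed here. The age and sex of the mice and the time after surgery are not given in the sources used here, and hearts given unmodified cells were not analysed here, so implantation and the FOXO3 change cannot be told apart. Nothing says that the 3 libraries of a group are 3 mice: header names share a stem between sham 1 and 2 and between ligation 2 and 3, so the p-values measure the spread between these libraries, which may be technical.

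The branched-chain amino acids leucine, isoleucine and valine first lose their amino group in mitochondria to the aminotransferase Bcat2. The resulting keto acids meet the branched-chain keto acid dehydrogenase complex, whose decarboxylase is built from Bckdha and Bckdhb and whose acyl transfer core is Dbt. The kinase Bckdk phosphorylates and inactivates the complex, and the phosphatase Ppm1k reverses this. In heart, circulating ketone bodies are burned: Bdh1 oxidises beta-hydroxybutyrate to acetoacetate, Oxct1 activates acetoacetate with CoA from succinyl-CoA, and the thiolase Acat1 splits acetoacetyl-CoA. Acat1 also cuts the last intermediate of isoleucine breakdown, so it belongs to both routes.

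Both decarboxylase subunits, whose count ratios did not overlap between the groups, and Oxct1, the most abundant member, are shown by the 250 bases before their RefSeq start sites (GRCm38.p6, 5′ to 3′ on the gene's strand). RefSeq's promoter table held 7 of the 9 members, among them Bckdha at chr7:25658762-25659011 (minus strand), Bckdhb at chr9:83924887-83925136 (plus strand) and Oxct1 at chr15:4026178-4026427 (plus strand). The GENCODE gene models given below start inside the Bckdha window (at 25658981) and inside the Oxct1 window (at 4026383). Most of the Bckdha window and part of the Oxct1 window therefore lie within the gene model. Capitals mark a GC box, the one motif match found in the 7 windows.
Bckdha: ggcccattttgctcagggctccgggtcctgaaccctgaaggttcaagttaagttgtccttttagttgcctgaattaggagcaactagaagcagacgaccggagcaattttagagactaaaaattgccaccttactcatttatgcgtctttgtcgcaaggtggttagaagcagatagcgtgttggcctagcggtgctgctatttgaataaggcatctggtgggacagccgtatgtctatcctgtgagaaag
Bckdhb: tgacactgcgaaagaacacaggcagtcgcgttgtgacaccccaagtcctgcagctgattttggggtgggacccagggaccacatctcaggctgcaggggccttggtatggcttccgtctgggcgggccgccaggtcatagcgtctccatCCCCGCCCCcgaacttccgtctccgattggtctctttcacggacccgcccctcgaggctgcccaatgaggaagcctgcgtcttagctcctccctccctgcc
Oxct1: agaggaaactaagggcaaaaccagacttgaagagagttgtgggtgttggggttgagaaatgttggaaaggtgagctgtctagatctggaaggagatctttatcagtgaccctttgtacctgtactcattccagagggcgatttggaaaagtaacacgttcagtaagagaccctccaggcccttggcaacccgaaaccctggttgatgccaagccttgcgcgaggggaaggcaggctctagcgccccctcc

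5 motifs were searched on both strands: TGTTTAC (forkhead), TNAAGGTCA (estrogen-related receptor), CACGTG (E-box), GGGGCGGGG (GC box) and the direct repeat read by PPAR with RXR, which is AGGTCA given 2 times with 1 base between. The GC box stood on the minus strand of the Bckdhb window, written above as CCCCGCCCC, with its first letter 101 bases before the start. Of all 32851 RefSeq promoter windows of that length, 10.4% held a GC box, 6.02% an E-box, 3.17% the forkhead letters, 1.14% the estrogen-related receptor letters and 0.0335% the direct repeat. G and C made up 63.2% of the Bckdhb window, 47.6% of the Bckdha window and 52.0% of the Oxct1 window, against a median of 52.4% over all windows. These are matches of letters in a short window and say nothing of binding.

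Gene counts per library ran from 4549268 to 7515052, and the members' counts from 138 (Bckdha, ligation 1) to 7396 (Oxct1, cells 1). Mitochondrially encoded genes took 19.1 to 19.9% of counts in sham, 12.6 to 13.9% after ligation and 14.3% in each cell library. The 8 cardiomyocyte markers were all detected and summed to 43690 to 44900 CPM in sham (counts-per-million, with library sizes scaled by TMM factors that centre most genes), 30090 to 32540 after ligation and 29540 to 30820 with cells, so the tissue label held. The 6 fibroblast markers summed to 2054 to 2124, 3667 to 3784 and 3465 to 3535 CPM in the same order, and the 6 macrophage markers to 376.5 to 401.5, 550.4 to 574.4 and 221.0 to 224.2. In bulk tissue, fewer cells of a type and less RNA per cell cannot be told apart.

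Per kilobase of exon, the sham hearts expressed Oxct1 most, at 228 CPM per kb ± 2.70 (SD, n = 3). Acat1 followed at 119 ± 3.83 and Bdh1 at 59.3 ± 1.31. The branched-chain genes lay lower: Bckdhb at 35.5 ± 1.05, Bcat2 at 28.1 ± 1.37, Bckdk at 21.7 ± 0.473, Dbt at 18.9 ± 1.85, Bckdha at 15.8 ± 0.589 and Ppm1k at 10.9 ± 0.340. Sham ranges of neighbours in this order did not overlap. The place of Bckdha rests on the length used: B3gnt8, a gene on the opposite strand, covers 61.7% of its exon length, and over the rest alone Bckdha would stand at 41.2 CPM per kb. Over full exon length, Bckdha stood at 15.9 ± 0.605 CPM per kb after ligation, where Dbt was at 14.4 ± 0.295, and in the cell libraries Bckdha (19.8 ± 1.27) and Bckdk (20.4 ± 1.29) overlapped. Over the length not shared, Bckdha was above Dbt in all 3 groups.

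**Figure D1:**
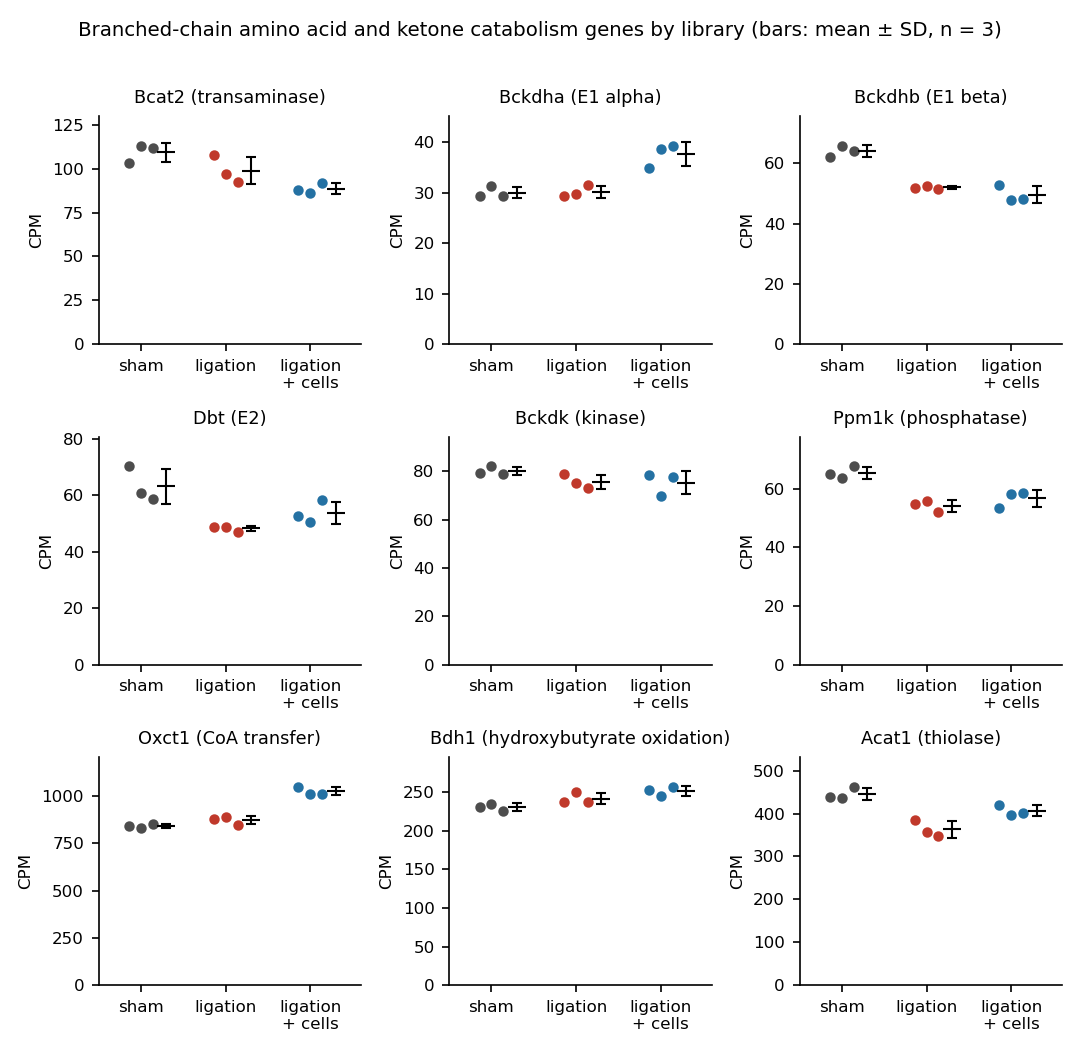
CPM (TMM-scaled, vertical axes starting at 0) of the 9 members in each library, grouped as sham, ligation and ligation with cells; points are libraries and bars the group mean with its SD (n = 3). Bckdhb, Dbt, Ppm1k and Acat1 sit lower in all 3 ligation libraries than in any sham library, and Oxct1 sits highest in the 3 cell libraries.

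The first comparison asked what ligation did to these genes in the border zone. Bckdhb, Dbt, Ppm1k and Acat1 fell to between 0.763 and 0.827 times their sham level, and Bcat2, Bckdk, Bckdha, Oxct1 and Bdh1 did not pass the test. So 4 of 9 members were lower and 0 higher at an adjusted p under 0.05 (edgeR quasi-likelihood test, Benjamini-Hochberg over all genes). Over all genes tested, 18.0% were called lower and 20.1% higher, and among the 5072 genes at least as abundant as the least abundant member 28.9% were lower and 27.5% higher. The members' median log2 change was -0.15, against 0.01 over all genes. With 9 members, 4 lower calls are not far above that background.

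Bckdhb (ENSMUSG00000032263, GRCm38 chr9:83925145-84124240, plus strand) encodes the beta subunit of the decarboxylase. It was at 62.1, 65.9 and 64.3 CPM in sham and at 52.0, 52.7 and 51.6 CPM after ligation. Every ligation library was below every sham library, and the log2 change was -0.30 (SE 0.070, edgeR adjusted p = 0.00182).

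Dbt (ENSMUSG00000000340, chr3:116513070-116549981, plus strand), the acyltransferase core, was at 70.3, 61.0 and 58.6 CPM in sham and at 48.8, 48.9 and 47.1 CPM after ligation. The groups did not overlap although sham 1 stood above the other sham libraries. The log2 change, -0.39 (SE 0.081, edgeR adjusted p = 0.000678), was the largest decrease among the members.

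Ppm1k (ENSMUSG00000037826, chr6:57506502-57535468, minus strand), the phosphatase that activates the complex, was at 65.0, 63.6 and 67.6 CPM in sham and at 54.8, 55.9 and 51.9 CPM after ligation. No ligation library reached a sham library, and the log2 change was -0.27 (SE 0.070, edgeR adjusted p = 0.00378). Its opponent Bckdk (ENSMUSG00000030802, chr7:127904082-127910221, plus strand) was at 79.4, 82.0 and 78.7 CPM in sham and 78.8, 75.0 and 72.9 CPM after ligation. These groups overlapped, and the log2 change of -0.09 (95% interval -0.23 to 0.05) did not pass (edgeR adjusted p = 0.331).

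Acat1 (ENSMUSG00000032047, chr9:53580522-53610382, minus strand), the thiolase shared by the ketone and isoleucine routes, was at 439, 436 and 463 CPM in sham and at 386, 357 and 347 CPM after ligation. The groups did not overlap, with a log2 change of -0.30 (SE 0.049, edgeR adjusted p = 6.12e-05). Leaving out any 1 of the 9 libraries kept all 4 lower calls.

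Bcat2 (ENSMUSG00000030826, chr7:45570153-45589711, plus strand), the aminotransferase, was at 103, 113 and 112 CPM in sham and at 108, 96.8 and 92.5 CPM after ligation. Ligation 1 lay within the sham range and the other ligation libraries below it. The log2 change of -0.15 (95% interval -0.29 to -0.01) did not pass over all genes (edgeR adjusted p = 0.0840), and without ligation 1 it was -0.21 and passed (adjusted p = 0.0182). The other 8 fits that left out a library did not pass, the smallest change being -0.12 and the largest adjusted p 0.235.

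Bckdha (ENSMUSG00000060376, chr7:25629946-25658981, minus strand), the alpha subunit that carries the regulated phosphorylation site, was at 29.4, 31.3 and 29.4 CPM in sham and 29.4, 29.7 and 31.5 CPM after ligation. The groups overlapped (log2 change 0.01, 95% interval -0.18 to 0.20). The strand setting of the authors' counting is not given in the sources used here. B3gnt8, which shares 1171 bases with Bckdha, was at 4.78 to 6.76 CPM in sham, 7.88 to 12.3 CPM after ligation and 6.52 to 9.51 CPM with cells, and its part in the Bckdha counts was not tested.

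Oxct1 (ENSMUSG00000022186, chr15:4026383-4155344, plus strand), the rate-setting CoA transferase of ketone use, was at 843, 833 and 853 CPM in sham and 877, 891 and 848 CPM after ligation. Bdh1 (ENSMUSG00000046598, chr16:31422280-31458901, plus strand), the dehydrogenase before it, was at 231, 236 and 225 CPM in sham and 238, 251 and 237 CPM after ligation. Oxct1 overlapped between groups (log2 change 0.05, 95% interval -0.03 to 0.13) and Bdh1 did not, yet neither passed (Bdh1 log2 change 0.07, 95% interval -0.03 to 0.17, edgeR adjusted p = 0.293). Over all genes, 47.6% had ranges that did not overlap in this comparison, and 62.7% of those at least as abundant as the least abundant member.

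These directions are relative to the TMM scaling, which sets most genes near no change. With library totals alone, the median of all genes stood at 0.20 (log2), the share of calls that were higher went from 52.7 to 78.7%, and the 4 lower calls were lost (Bckdhb -0.11, Dbt -0.20, Ppm1k -0.09, Acat1 -0.11) while Oxct1 (0.24) and Bdh1 (0.26) passed as higher. Scaled to the summed cardiomyocyte markers, the median of all genes stood at 0.51, 95.3% of calls were higher, and 8 members passed as higher, Dbt (0.12) being the exception. The cardiomyocyte markers themselves had 5 of 8 lower and 1 higher after ligation, with log2 changes from -0.95 (Tnni3) to 0.36 (Ryr2). Actn2 (-0.05) and Tnnt2 (-0.06) did not pass, so the markers behind this scaling did not move together. Fibroblast markers were 4 of 6 higher and 1 lower, and macrophage markers 5 of 6 higher and 0 lower. Endothelial markers were 5 of 5 lower (median log2 change -0.48) and smooth muscle and pericyte markers 4 of 5 lower (median -0.47). Neutrophil markers were 2 of 4 lower, with sums of 36.7 to 43.6 CPM in sham and 13.2 to 19.1 CPM after ligation. The lower calls were S100a8 and S100a9, while Csf3r (log2 change 0.64) and Cxcr2 (-0.42) did not pass. The part of these markers in the members' values was not tested.

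**Figure D2:**
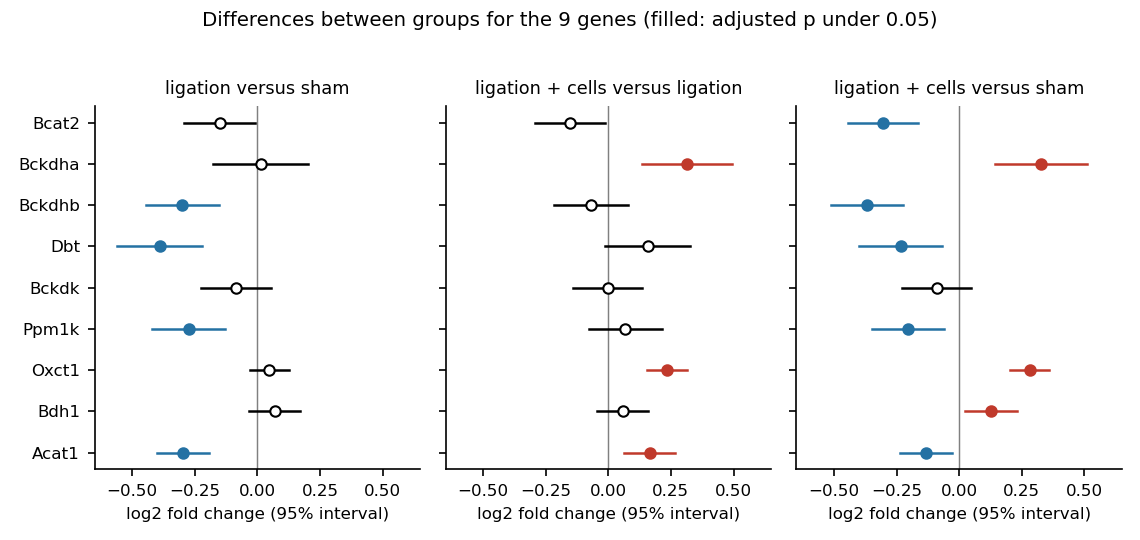
Log2 fold changes of the 9 members (edgeR, horizontal axis, log2 scale) with 95% intervals in the 3 comparisons; filled points passed an adjusted p of 0.05. Dbt, Acat1, Bckdhb and Ppm1k lie left of 0 after ligation, and Oxct1, Bckdha and Acat1 lie right of 0 with cells against ligation.

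The second comparison set the hearts given cells against those with ligation alone. Oxct1, Bckdha and Acat1 rose 1.12-fold to 1.24-fold, and no member fell: 3 of 9 were higher and 0 lower (edgeR, adjusted p under 0.05). Over all genes 4.19% were called higher and 5.69% lower, and 7.85% were higher among the genes at least as abundant as the least abundant member. The members' median log2 change was 0.07 and that of all genes 0.00.

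Oxct1 was at 1049, 1012 and 1012 CPM with cells, all above the 848 to 891 CPM of the ligation libraries. Its log2 change was 0.23 (SE 0.038, edgeR adjusted p = 0.000274), and leaving out each library in turn gave 0.21 to 0.25, with the call kept each time. A lncRNA on the opposite strand, BC037032, overlaps 12.6% of its exon length and was at 1.11 to 3.62 CPM.

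Acat1 was at 421, 397 and 402 CPM with cells, between the sham and ligation levels and overlapping neither. The log2 change from ligation was 0.17 (SE 0.049, edgeR adjusted p = 0.0372). This call was lost without ligation 2 (adjusted p = 0.144), ligation 3 (0.163), cells 1 (0.159) or cells 3 (0.0781), with log2 changes of 0.13 to 0.17, with libraries of a shared header stem summed (0.15, adjusted p = 0.121) and with library totals alone (0.14, 0.0730).

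Bckdha was at 34.9, 38.7 and 39.3 CPM with cells, above every ligation and sham library. The log2 change from ligation was 0.31 (SE 0.087, edgeR adjusted p = 0.0235), the largest of the members but on the fewest counts. The call was lost with DESeq2 (log2 change 0.32, adjusted p = 0.0872) and without ligation 1 (0.30, 0.0725), ligation 2 (0.30, 0.0951), cells 2 (0.29, 0.0824) or cells 3 (0.28, 0.104), with the change itself about as large. B3gnt8, the gene opposite it, had a log2 change of -0.20 in this comparison (edgeR adjusted p = 0.645).

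Dbt was at 52.6, 50.5 and 58.2 CPM with cells, all above the ligation libraries, but the log2 change of 0.16 (95% interval -0.01 to 0.33) did not pass (edgeR adjusted p = 0.263). Bcat2 went the other way, at 88.1, 86.0 and 92.1 CPM, all below the ligation libraries, and did not pass either (log2 change -0.15, 95% interval -0.29 to -0.01, adjusted p = 0.177). In all, 5 members had ranges that did not overlap, 4 up and 1 down, where 27.2% of all genes did, and 34.3% of those at least as abundant as the least abundant member.

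The remaining members overlapped between cells and ligation. Bckdhb was at 52.9, 47.9 and 48.3 CPM, with a log2 change of -0.07 (95% interval -0.22 to 0.08). Ppm1k was at 53.3, 58.3 and 58.5 CPM (0.07, interval -0.08 to 0.21). Bckdk was at 78.3, 69.8 and 77.6 CPM (0.00, interval -0.14 to 0.14), and Bdh1 at 253, 245 and 257 CPM (0.06, interval -0.04 to 0.16).

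Macrophage markers moved with this comparison: 6 of 6 were lower with cells, with a median log2 change of -1.37. The 4 neutrophil markers summed to 13.2 to 19.1 CPM after ligation and 5.76 to 6.10 CPM with cells, while the cardiomyocyte sums overlapped. Of the 8 cardiomyocyte markers, 2 were higher with cells, Myl3 (log2 change 0.14) and Pln (0.19), and 1 was lower, Tnnt2 (-0.11). The 5 fast skeletal muscle markers summed to 2.49 to 3.79 CPM in sham, 7.81 to 11.1 after ligation and 1.56 to 3.17 with cells. The ligation libraries stood apart in Pvalb and Tnnt3, both called lower with cells. Mylpf did not pass (log2 change 0.14 for ligation and -0.48 for cells against ligation), and Myh4 and Myh1 were too low to test. The part of these markers in the members' values was not tested.

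The third comparison, cells against sham, shares the sham libraries with the first and the cell libraries with the second. Here 3 members were higher (Bckdha 0.33, Oxct1 0.28, Bdh1 0.13 on the log2 scale) and 5 lower (Bckdhb -0.37, Bcat2 -0.30, Dbt -0.23, Ppm1k -0.21, Acat1 -0.13), against 21.0% and 20.0% of all genes, and 30.4% and 29.0% of those at least as abundant as the least abundant member. Bckdk alone did not pass (-0.09, 95% interval -0.23 to 0.05). The smallest p-values were those of Oxct1 (edgeR adjusted p = 4.97e-06), Bckdhb (0.000232) and Bcat2 (0.00106). With library totals alone, 1 lower call was left and Bcat2 did not pass (-0.15, adjusted p = 0.0795). Scaled to cardiomyocyte markers, all 5 lower members and Bckdk turned sign (0.19 for Bckdhb to 0.47 for Bckdk) and all 9 passed as higher, with the median of all genes at 0.55. All 3 Bcat2 values with cells lay below all sham libraries, with a log2 change of -0.15 in each of the other comparisons.

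In this comparison macrophage markers were 6 of 6 lower, neutrophil markers 4 of 4 and endothelial markers 5 of 5. Smooth muscle and pericyte markers were 4 of 5 lower. Cardiomyocyte markers were 6 of 8 lower and 1 higher, Ryr2 (log2 change 0.26). Fibroblast markers were 4 of 6 higher and adipocyte markers 3 of 4 higher and 1 lower. Their part in the members' values was not tested.

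Several calls against sham were also lost when a library was left out. Bdh1 (adjusted p = 0.0442) was lost without sham 1 (0.0894), sham 3 (0.126), ligation 2 (0.0517), ligation 3 (0.0787), cells 1 (0.103) or cells 3 (0.137), with log2 changes of 0.11 to 0.13. With DESeq2 and all libraries, Bdh1 (0.12, adjusted p = 0.0598), Dbt (-0.24, 0.0519) and Ppm1k (-0.21, 0.0642) did not pass. Dbt was lost without sham 1 (-0.15, adjusted p = 0.161), cells 1 (-0.22, 0.0724) or cells 2 (-0.19, 0.0933). Ppm1k was lost without sham 3 (-0.18, 0.0820) or cells 1 (-0.16, 0.111), and Acat1 without sham 3 (-0.11, 0.136), cells 2 (-0.12, 0.110) or cells 3 (-0.13, 0.0986).

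Ratios of 2 members within a library do not depend on how libraries are scaled, so 6 ratios were compared over the 3 pairs of groups. With 3 libraries against 3, the exact two-sided permutation test cannot go below p = 0.1, and over the 18 tests that becomes 0.15 after Benjamini-Hochberg adjustment. No ratio can therefore pass, and the values are given with the overlap of the groups.

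The ratio of Bckdha to Bckdhb counts was higher in every ligation library than in any sham library, and highest in the cell libraries. Bckdha counts were 0.474, 0.476 and 0.458 of Bckdhb counts in sham, 0.567, 0.564 and 0.611 after ligation, and 0.660, 0.809 and 0.815 with cells. None of the 3 groups overlapped another (log2 difference 0.31 for ligation minus sham and 0.39 for cells minus ligation, exact permutation p = 0.1 each). Which subunit is the more abundant depends on the length used for Bckdha: per kilobase not shared with B3gnt8 it stood at 41.2, 41.5 and 51.7 CPM per kb in sham, ligation and cells, above Bckdhb at 35.5, 28.9 and 27.5.

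Bckdk counts were 1.22, 1.29 and 1.16 times Ppm1k counts in sham and 1.44, 1.34 and 1.40 times after ligation, so the kinase outnumbered the phosphatase more in each ligation library (log2 difference 0.19, exact permutation p = 0.1). With cells the ratio was 1.47, 1.197 and 1.33, overlapping both other groups. Ratios of transcript counts say nothing of the proteins' activity.

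Dbt counts were 1.95 to 2.39 times Bckdha counts in sham, 1.495 to 1.66 times after ligation and 1.30 to 1.51 times with cells. Bcat2 counts were 3.51 to 3.80 times Bckdha counts in sham, 2.93 to 3.66 after ligation and 2.22 to 2.52 with cells. In both, sham and cells did not overlap (exact permutation p = 0.1).

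On the ketone side, Oxct1 counts were 3.54 to 3.78 times Bdh1 counts in sham, 3.55 to 3.68 after ligation and 3.93 to 4.14 with cells. The cell libraries lay above both other groups, which overlapped each other. Oxct1 counts were 1.84 to 1.92 times Acat1 counts in sham, 2.27 to 2.495 after ligation and 2.49 to 2.55 with cells. Here the sham libraries stood apart from both ligated groups, which overlapped at their edges (exact permutation p = 0.2).

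**Figure D3:**
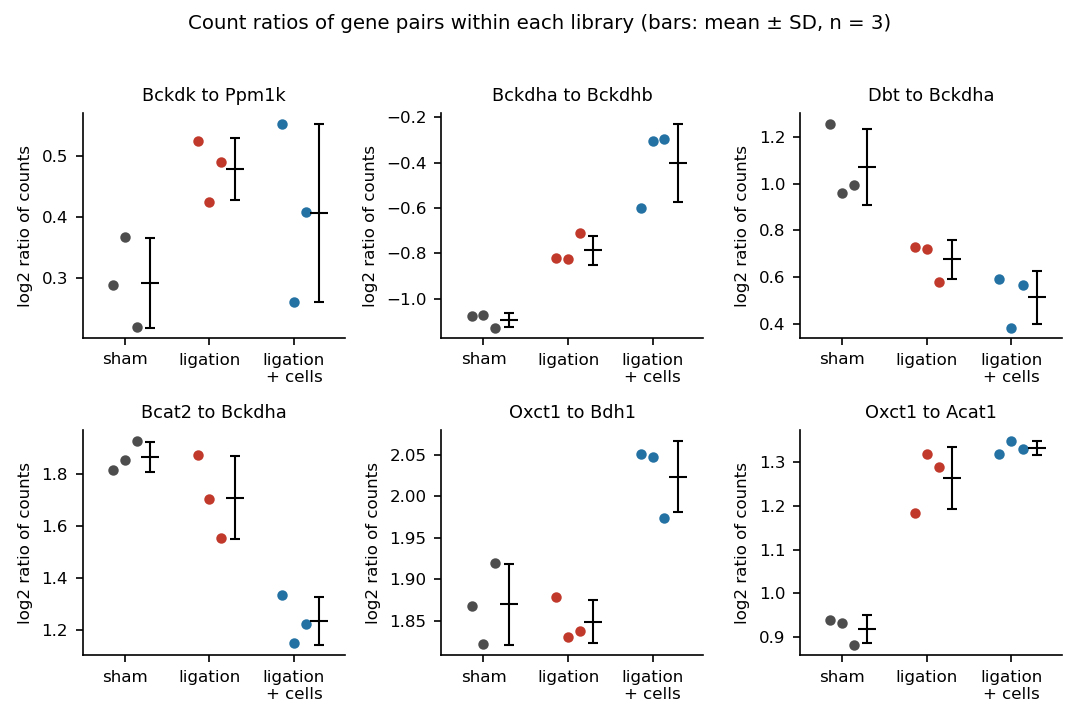
Log2 ratio of the counts of 2 members within each library (vertical axis), for 6 pairs and 3 groups; points are libraries and bars the group mean with its SD (n = 3). The Bckdha to Bckdhb ratio stands at -1.13 to -1.07 in sham, -0.83 to -0.71 after ligation and -0.60 to -0.29 with cells.

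Profiles across the 9 libraries were also compared, as the root mean square difference of log2 CPM after centring each gene, over 9404 genes of at least 10 CPM. The closest gene to Oxct1 was Casq2, the cardiac calcium store protein calsequestrin (difference 0.0289). Bckdhb lay closest to Mdh2, mitochondrial malate dehydrogenase (0.0401), Dbt to Ldhd, a mitochondrial D-lactate dehydrogenase (0.0468), and Acat1 to the membrane protein gene Stom (0.0363). Bdh1 lay closest to Ndrg2 (0.0316), Bckdk to Ccdc141 (0.0362), Ppm1k to the chaperonin subunit Cct3 (0.0414), Bcat2 to Ogfr (0.0417) and Bckdha to Zfp664 (0.0524). No member was another member's nearest gene. The closest pairs within the set were Ppm1k with Acat1 (0.0775), Oxct1 with Bdh1 (0.0848) and Bckdha with Oxct1 (0.0854). Many genes outside the set lay nearer than the nearest member: 167 for Ppm1k, 111 for Acat1, 258 for Oxct1, 525 for Bdh1 and 46 for Bckdha.

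Around the members, 49 further genes of these routes and their relatives were counted, 46 of them tested. After ligation 7 were higher and 12 lower, with cells against ligation 6 higher and 2 lower, and the medians were -0.02 and 0.09 on the log2 scale (edgeR, adjusted p under 0.05 over all genes). The background is that given above: 20.1% higher and 18.0% lower for ligation, 4.19% and 5.69% for cells. Among the 5072 genes at least as abundant as the least abundant member, it was 27.5% and 28.9% for ligation, 7.85% and 6.82% for cells. Some of the 46 genes lie below that abundance. Bdh2, Oxct2a and Oxct2b were too low to test. With library totals alone, the ligation counts became 21 higher and 5 lower, and scaled to cardiomyocyte markers 36 higher and 1 lower. Over all 13825 genes the same fits called 4966 higher and 1346 lower, and 9117 higher and 454 lower. For cells against ligation, leaving out each library in turn gave 3 to 6 pathway genes higher and 0 to 2 lower. Scaled to cardiomyocyte markers that comparison gave 10 higher and 1 lower, where 926 of all 13825 genes were higher and 582 lower.

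Among uptake and shared components, 2 of 8 were higher after ligation and 0 lower. These were the amino acid transporters Slc43a2 (log2 change 0.51, SE 0.159) and Slc7a5 (0.67, SE 0.226). Slc43a2 was lost without sham 3 (0.32, edgeR adjusted p = 0.111), ligation 1 (0.45, 0.0514) or ligation 2 (0.49, 0.0504), and Slc7a5 without sham 3 (0.50, 0.124) or ligation 3 (0.57, 0.109). With cells, 1 of 8 was higher and 1 lower. Slc7a8, another such transporter, went from 5.10 to 2.08 CPM, a call lost without ligation 3 (-1.04, adjusted p = 0.107) or cells 1 (-1.07, 0.0657).

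Dld, the flavin subunit that the branched-chain complex shares with other keto acid dehydrogenases, was at 341 to 351 CPM in sham, 335 to 371 CPM after ligation and 391 to 401 CPM with cells. Sham and ligation overlapped, and the cell libraries stood above both. Its rise over ligation (log2 change 0.19, SE 0.047, edgeR adjusted p = 0.0139) was lost without ligation 2 (0.17, 0.0826), ligation 3 (0.16, 0.0771) or cells 1 (0.18, 0.0515). The mitochondrial branched-chain carrier Slc25a44 (log2 changes 0.18 and 0.12) and the cytosolic aminotransferase Bcat1, at 2.15, 2.996 and 3.55 CPM in the 3 groups, passed in neither comparison. With library totals alone Slc25a44 passed as higher after ligation (0.37, edgeR adjusted p = 0.0137). It was also higher with cells against sham under TMM scaling (0.30, 0.0406).

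Downstream of the complex, 3 of 5 leucine genes were lower after ligation and none higher. Mccc1, a subunit of methylcrotonyl-CoA carboxylase, was at 58.4, 54.0 and 49.5 CPM in sham and 31.7, 34.7 and 34.3 CPM after ligation. The groups did not overlap (log2 change -0.68, SE 0.084, edgeR adjusted p = 1.80e-06). Its partner subunit Mccc2 (-0.33) and the hydratase Auh (-0.26) also fell. Of the isoleucine arm 1 of 3 was lower: Hsd17b10, the dehydrogenase just before Acat1, at 163, 165 and 158 CPM in sham and 119, 116 and 104 CPM after ligation (log2 change -0.52, SE 0.063, adjusted p = 1.15e-06). Scaled to cardiomyocyte markers, Mccc1 (-0.17, adjusted p = 0.104) and Hsd17b10 (-0.02, 0.794) did not pass, and with library totals alone Mccc2 (-0.14, 0.209) and Auh (-0.08, 0.352) did not.

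None of the 4 valine genes passed after ligation. With cells, 1 of 4 rose over ligation: Hibch, the hydrolase of that arm, from 66.5, 74.1 and 67.0 to 83.7, 86.7 and 82.5 CPM (log2 change 0.28, edgeR adjusted p = 0.00992, lost without ligation 3 at 0.26 and 0.0565). In the propionyl-CoA arm, where isoleucine and valine carbon enters the citric acid cycle, 2 of 6 were lower after ligation. They were the epimerase Mcee, at 101, 94.7 and 104 CPM in sham and 63.3, 63.2 and 59.8 CPM after ligation (log2 change -0.69, SE 0.071, adjusted p = 1.16e-07), and Mmaa, a cobalamin handling gene (-0.35, with library totals alone -0.16 and adjusted p = 0.104). With cells 1 of 6 rose, the mutase Mmut (0.28, adjusted p = 0.0224), a call lost without ligation 3 (0.20, 0.161) or cells 1 (0.22, 0.137).

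Of 5 other ketone genes tested, 1 was higher and 1 lower after ligation. Aacs, the cytosolic enzyme that activates acetoacetate for synthesis, was at 8.54, 7.74 and 7.14 CPM in sham and 19.4, 18.1 and 19.8 CPM after ligation (log2 change 1.29, SE 0.145, edgeR adjusted p = 4.51e-07). The lower call was Slc16a1.

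The adipocyte markers had a summed level of 42.2 to 45.0 CPM in sham, 80.3 to 91.4 CPM after ligation and 78.6 to 87.1 CPM with cells, and 3 of the 4 tested were higher after ligation. The other, Cidea, was lower (log2 change -0.40) and made up 35.2 to 39.9 CPM of the sham sums. Their part in the Aacs value was not tested.

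Slc16a1, which carries ketone bodies and lactate across the membrane, was at 197, 191 and 192 CPM in sham, 173, 179 and 163 CPM after ligation, and 233, 225 and 228 CPM with cells. The 3 groups did not overlap. Its fall after ligation was small (log2 change -0.17) and lost without sham 1 (-0.16, edgeR adjusted p = 0.0517). Its rise with cells over ligation (0.41, SE 0.052, adjusted p = 1.42e-05) was kept without any 1 library.

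Of the regulators, Ppargc1a, a coactivator of mitochondrial genes, was lower after ligation (log2 change -0.31) and the fatty acid receptor Ppara higher (0.55). Ppargc1a was lost without sham 1 (-0.23, edgeR adjusted p = 0.0750), ligation 2 (-0.27, 0.0541) or ligation 3 (-0.26, 0.0565), and with library totals alone (-0.12, 0.298). Ppara was lost without sham 1 (0.53, 0.0707), sham 2 (0.47, 0.0932) or ligation 2 (0.49, 0.0946), and with DESeq2 on all libraries (0.55, 0.0664). Klf15, a known activator of branched-chain amino acid breakdown in heart, was at 39.2, 39.0 and 39.4 CPM in sham, 38.1, 38.3 and 44.9 CPM after ligation, and 29.1, 36.6 and 33.3 CPM with cells.

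Sham and ligation overlapped for Klf15, and the cell libraries lay below both. Its lower call with cells (log2 change -0.30, edgeR adjusted p = 0.0486) was lost without any one of the libraries except cells 2, with log2 changes of -0.39 to -0.21 over all 9.

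Pyruvate and oxoglutarate dehydrogenase, built like the branched-chain complex, gave 12 related genes, of which 3 were higher and 4 lower after ligation. Pdha1, the pyruvate dehydrogenase alpha subunit, was at 254, 249 and 237 CPM in sham and 438, 412 and 410 CPM after ligation (log2 change 0.77, edgeR adjusted p = 1.24e-10). Its beta partner Pdhb was at 688, 655 and 656 CPM in sham and 496, 490 and 465 CPM after ligation (-0.46, adjusted p = 3.02e-08). So the alpha subunit rose and the beta subunit fell. The inhibitory kinase Pdk1 was at 134 to 147 CPM in sham and 253 to 267 CPM after ligation (0.91, adjusted p = 2.07e-11), while Pdk2, another such kinase named here after its values were seen, was lower (-0.36).

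With cells against ligation, 2 of these 12 were higher. Pdk4, the fasting-induced pyruvate dehydrogenase kinase, was at 94.3, 97.2 and 89.2 CPM in sham, 106, 95.6 and 92.1 CPM after ligation, and 170, 165 and 168 CPM with cells. Only the cell libraries stood apart (log2 change from ligation 0.78, SE 0.062, edgeR adjusted p = 2.13e-08). Pdha1 rose by a further 0.20 (adjusted p = 0.00917), a call lost without ligation 2 (0.19, 0.0586) or cells 2 (0.17, 0.0556).

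**Figure D4:**
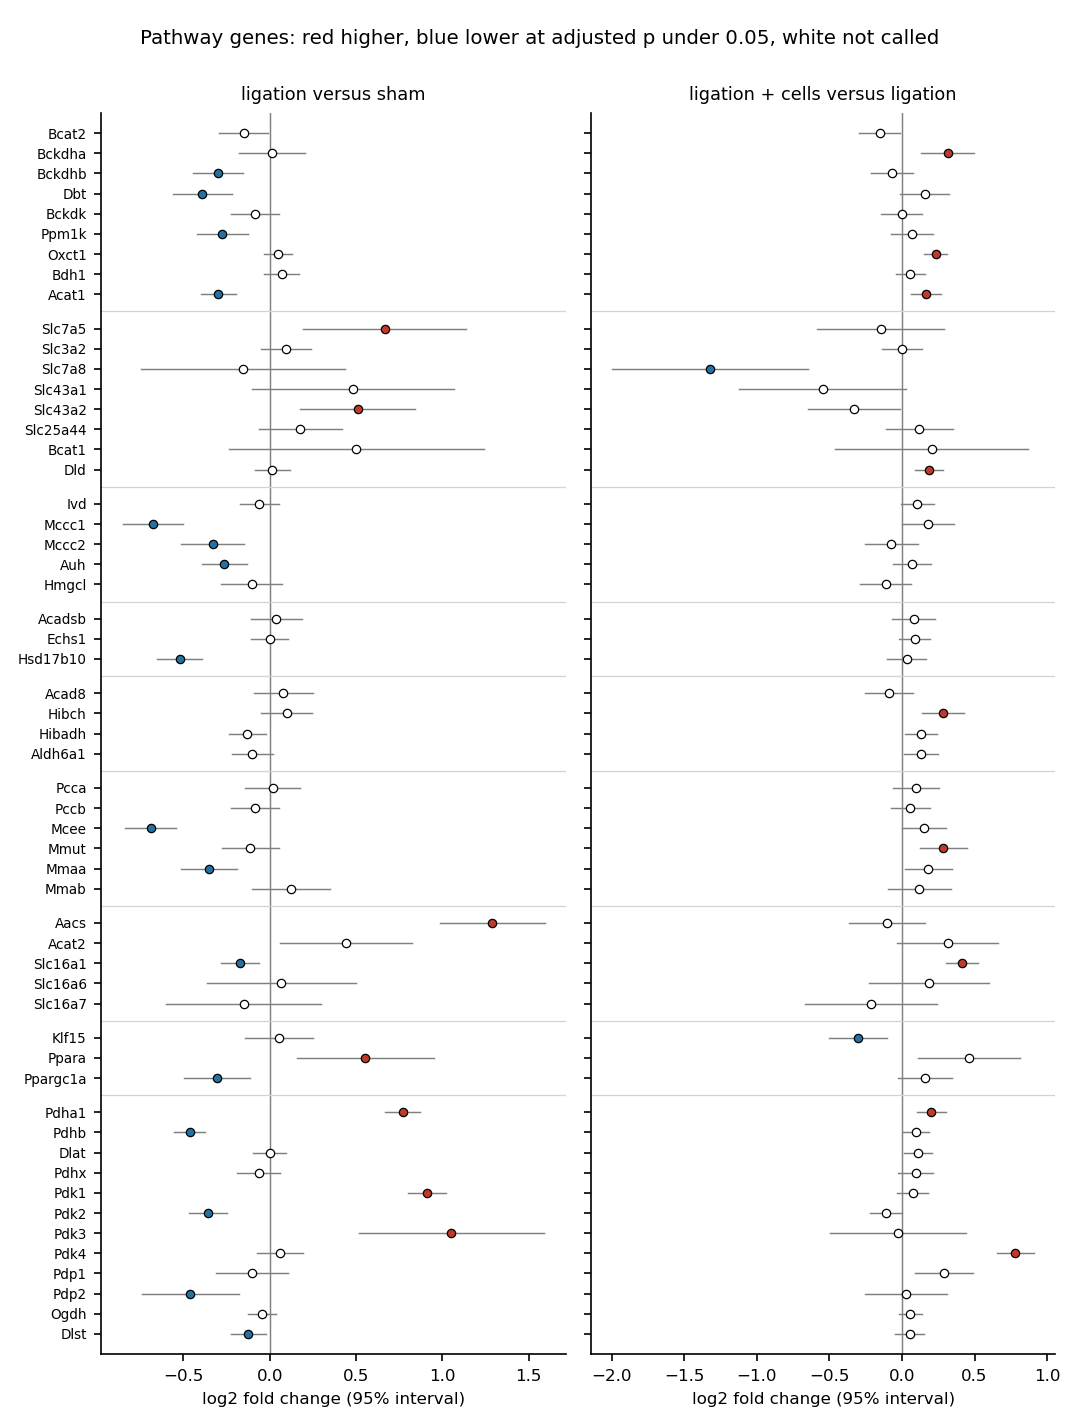
Log2 fold changes (edgeR, log2 scale) of the members and the other pathway genes by list, after ligation (relative to sham) and with cells (relative to ligation), with 95% intervals; red points were called higher, blue lower, at an adjusted p of 0.05, and white were not called. Mcee, Mccc1 and Hsd17b10 lie lowest after ligation among the breakdown arms, and Pdk4 and Slc16a1 lie highest among the calls with cells.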

How the data were processed

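Total RNA was prepared with TRIzol and libraries with the NEBNext Ultra RNA kit, per the labels' protocols. The authors deposited 1 table of raw read counts per gene for each of the 9 libraries, on mm10 per the submitters' processing notes. Closing lines of the files carry htseq-count names and stayed out of library sizes: reads outside genes came to 4.14 to 4.91% and ambiguous reads to 8.09 to 8.72% of each file's total. The aligner, annotation release and strand setting are not given in the sources used here. Counts were fitted with edgeR 4.0.16 (R 4.3.3; filterByExpr, TMM, quasi-likelihood) over all 9 libraries, with Benjamini-Hochberg adjustment over 13825 genes. CPM and log2 changes were computed here, and gene models came from GENCODE M21 (GRCm38). Ratios used counts plus 0.5 and SciPy 1.17.1. On simulated counts for ligation against sham (13660 genes), 84 of 99 changes of 1 and 49 of 98 of 0.5 (log2) were recovered. There were 10 false calls, and no member's change for ligation was as large as 0.5. Alternatives included DESeq2 1.42.0 and limma 3.58.1. The members and lists were chosen with earlier results of these data known. Named genes were all members, of each list up to 3 with the smallest p called for ligation and up to 2 for cells, and Klf15, Bcat1, Dld, Pdk4 and Slc25a44. 1 listed gene is not reported here and was left out of its list.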

Additional observations from a re-analysis of the deposited data

How the results depend on the processing

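The members' ligation calls depend on scaling. With library totals alone, 2 members were higher and 0 lower after ligation and 1 lower with cells against sham. Scaled to cardiomyocyte markers, these counts were 8 higher and 0 lower after ligation and 9 higher and 0 lower with cells against sham, where 9117 and 9351 of all 13825 genes were higher and 454 and 451 lower. Lower calls against sham with cells fell to 3 both without a filter on low counts and with DESeq2. Leaving out each library in turn gave 1 to 3 higher for cells against ligation and 3 to 5 lower for cells against sham. Log2 changes that turned sign with library totals were Bcat2 0.036, Bckdk 0.10 and Slc16a1 0.0165 for ligation, and Bckdk 0.0689 and Acat1 0.0257 for cells against sham. With cardiomyocyte scaling they were, for ligation, Bcat2 0.35, Bckdhb 0.21, Dbt 0.12, Bckdk 0.42, Ppm1k 0.23, Acat1 0.20, Auh 0.24, Mccc2 0.18, Mmaa 0.15, Slc16a1 0.33, Ppargc1a 0.20 and Pdhb 0.0397. For cells against sham they were Bcat2 0.26, Bckdhb 0.19, Dbt 0.33, Bckdk 0.47, Ppm1k 0.35 and Acat1 0.43, and for cells against ligation Bckdk 0.0526. The cause was not tested.

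Changes near 0 turned sign: Bckdha for ligation at -0.0039 without mitochondrially encoded genes, -0.0030 with the 2 groups alone, -0.0064 with libraries of a shared header stem summed, and -0.0402 to 0.0431 when libraries were left out. Bckdk for cells against ligation was 0.0012 with median-ratio factors, 0.0018 with DESeq2 and -0.0326 to 0.0487 over left-out libraries. Dld for ligation was -0.0014 without mitochondrially encoded genes, -9.19e-05 with the 2 groups alone and -0.0285 to 0.0337 over left-out libraries. Such ranges were -0.0524 to 0.1 for Klf15 after ligation and -0.0953 to 0.415 for Bcat1 with cells against ligation. The log2 ratio of Bckdk to Ppm1k ranged from -0.145 to 0.0013 for cells minus ligation, and that of Oxct1 to Bdh1 from -0.0448 to 0.0042 for ligation minus sham.

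Replicate numbers did not pair the libraries: deviations of same-numbered libraries correlated at -0.12 to 0.177. With the replicate number as a block, Bdh1 for cells against sham (0.13, edgeR adjusted p = 0.0615) was the one member call lost, and Klf15 for cells against ligation (-0.30, 0.0602) was lost too. Depth limits Bckdha most, since its lowest count was 138. Summing libraries of a shared header stem, an alternative chosen after seeing the data, kept the 4 lower calls for ligation and the Oxct1 and Bckdha calls for cells against ligation. It lost Acat1 (0.121), Dld (0.0583), Mmut (0.0501) and Klf15 (0.0889) for cells against ligation, Bdh1 (0.0920) for cells against sham and Ppara (0.0722) for ligation. With the pseudocount at 0 or 1 the ratios kept their direction.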
